A study of Mus musculus with 2 samples.

Results

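The 8 genes described here encode protein kinase C isozymes: Prkca (alpha), Prkcb (beta), Prkcd (delta), Prkce (epsilon), Prkch (eta), Prkci (iota), Prkcq (theta) and Prkcz (zeta). They were chosen by gene symbol, a rule that reads no measured value, though earlier results of these data were known. They are 8 of 55536 annotated genes in the series. The samples were left cerebral cortices of 2 mice, both female and B6CASTF1/J, that is F1 hybrids between C57BL/6J and CAST/EiJ, taken at 36 days of age. They form 1 group with no treatment, and each mouse gave 1 stranded total RNA library, prepared from 300 ng of RNA with ribosomal RNA reduced and ERCC spike-ins added. Levels are TPM as deposited, a length-corrected share of all transcripts in a library. Each mean ± SD is over the 2 mice, and no p-value was computed because no condition was compared. A further conventional isozyme is not analysed here.

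Protein kinase C enzymes are serine and threonine kinases of the AGC group that act downstream of receptors coupled to phospholipase C. The conventional isozymes (alpha, beta) need both calcium and the membrane lipid diacylglycerol, a calcium-independent class (delta, epsilon, eta, theta) needs diacylglycerol alone, and the atypical isozymes (iota, zeta) respond to neither and are steered by partner proteins. In brain the family is known for phosphorylating receptors, cytoskeletal linkers and release proteins at synapses.

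Replicate 2 held 35188766 expected counts (reads as divided among genes by the authors' quantifier) and replicate 1 held 29417186. The short abundant 7SL RNA took 30.1% of TPM in replicate 2 and 24.3% in replicate 1, which lowers the TPM of every other gene by construction. The biological coefficient of variation between the mice was 12.2% over 18187 genes. The labelled tissue was checked against its markers: the 5 pan-neuronal genes had a median of 424 ± 49.4 TPM and the 4 excitatory neuron genes 337 ± 4.03 TPM. The 4 oligodendrocyte genes had a median of 401 ± 95.9 TPM. Of neighbouring regions, the 4 striatum genes had a median of 7.80 ± 0.385 TPM and the 4 hippocampus genes 3.53 ± 0.138 TPM. The highest gene of each list stood above these medians, Rgs9 of striatum at 13.6 TPM and Wfs1 of hippocampus at 46.1 TPM. The choroid plexus gene Ttr had 8.29 TPM in replicate 2 and 70.1 TPM in replicate 1. The 6 thalamus genes had a median of 4.07 ± 0.605 TPM, and they summed to 31.2 TPM in replicate 2 and 36.0 TPM in replicate 1. Of the 4 T cell genes, Cd3d and Cd3g were listed at 0 TPM in both libraries of the gene table. The authors' second transcript table gave Cd3d 0.338 TPM in replicate 2 and 0.608 TPM in replicate 1. It gave Cd3g 0.122 TPM in replicate 2 and 0.294 TPM in replicate 1.

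All 8 isozyme genes reached 1 TPM in both mice, as did 57.9% of 22015 nuclear protein-coding genes. At 10 TPM in both mice, 5 of the 8 remained (Prkca, Prkcb, Prkce, Prkci and Prkcz), against 34.7% of nuclear protein-coding genes. The median of the 8 was 50.2 ± 4.52 TPM, beside 15.3 ± 1.60 TPM over the 12754 expressed nuclear protein-coding genes. The levels spanned 226-fold by mean TPM. Prkcb led at rank 60 of 12754, followed by Prkce (rank 730), Prkcz (866), Prkca (1340) and Prkci (4066). Prkcd (rank 10055), Prkcq (10768) and Prkch (11875) were the lowest, each below 7 TPM in either mouse.

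Neighbours in this order were separated beyond the spread of the 2 mice in 6 of 7 pairs, and the values of Prkcd and Prkcq overlapped. Prkcb exceeded Prkce 3.89-fold in replicate 2 and 4.49-fold in replicate 1. In the authors' second transcript table the gap was 3.19-fold in replicate 2 and 3.81-fold in replicate 1. Over protein-coding transcripts of the authors' first transcript table it was smaller, with means of 241 TPM for Prkcb and 111 TPM for Prkce. Prkce exceeded Prkcz only 1.17-fold in replicate 2 and 1.09-fold in replicate 1. That pair turned round in the authors' second transcript table, where Prkcz averaged 204 ± 4.24 TPM and Prkce 184 ± 9.18 TPM. The second table gave higher TPM for all 8 genes, 1.35 times the gene table's mean for Prkcb up to 2.51 times for Prkci, around a median of 1.57 times over expressed genes.

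**Figure D1:**
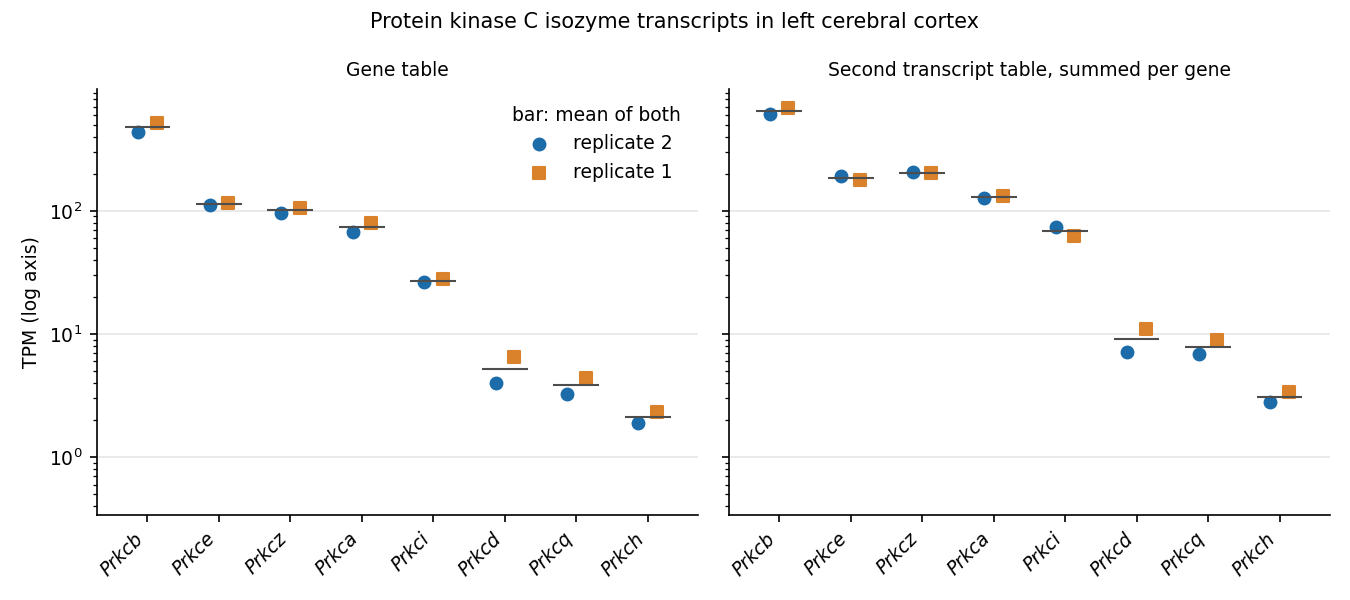
TPM of each isozyme gene (vertical axis, log scale) in replicate 2 (blue circles) and replicate 1 (orange squares), with the mean of both as a bar. The left panel shows the gene table and the right panel the second transcript table. Prkcb stands alone at the top with 435 TPM in replicate 2 and 518 TPM in replicate 1 in the gene table, and Prkcd, Prkcq and Prkch lie below 7 TPM in that table.

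Over all annotated transcripts, the conventional class held most of the summed isozyme TPM. Prkca and Prkcb together took 67.4% of the summed TPM of the 8 genes in replicate 2 and 69.5% in replicate 1, a mean of 68.4% ± 1.49. The 4 calcium-independent genes took 15.6% ± 0.887 and the 2 atypical genes 16.0% ± 0.607. Prkcb alone made up 59.3% ± 1.39. The conventional share was 61.8% ± 2.47 in the second transcript table, and 54.6% ± 1.98 by expected counts, where longer transcripts weigh more. All these shares include transcripts not annotated as protein-coding. In the first transcript table, protein-coding transcripts held 50.6% of TPM for Prkcb and 57.6% for Prkca. They held 97.5% for Prkce, 82.3% for Prkcz, 77.6% for Prkci and 51.9% for Prkcd. In the second table, protein-coding transcripts averaged 297 TPM for Prkcb and 69.3 TPM for Prkca. Those of Prkce averaged 182 TPM, those of Prkcz 162 TPM and those of Prkci 44.9 TPM. Class shares over protein-coding transcripts alone were not computed, so no majority is stated for them.

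Prkcb (ENSMUSG00000052889.11, mm10 chr7:122288751-122634402, + strand) encodes the beta isozyme, a conventional kinase that gives beta I and beta II proteins through alternative last coding exons. It reached 435 TPM in replicate 2 and 518 TPM in replicate 1 (mean 477 ± 59.2), from 22423 expected counts in replicate 2 and 19627 in replicate 1. The proteins share their first 1863 coding bases and then use different ends, of 52 residues for beta II and 50 for beta I. Those ends decide which variable tail follows the kinase domain, so both are shown here from the GENCODE M21 transcripts, + strand of mm10 chromosome 7, with the stop codon in capitals.
Prkcb beta II end, chr7:122627656-122627814: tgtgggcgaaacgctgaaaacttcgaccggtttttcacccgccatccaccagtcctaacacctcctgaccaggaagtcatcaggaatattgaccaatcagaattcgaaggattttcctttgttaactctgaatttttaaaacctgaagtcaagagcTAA
Prkcb beta I end, chr7:122633745-122633897: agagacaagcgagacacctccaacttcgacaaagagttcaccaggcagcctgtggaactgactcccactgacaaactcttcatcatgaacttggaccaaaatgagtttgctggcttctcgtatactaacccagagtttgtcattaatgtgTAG
Read side by side with no gap, 46 of 153 positions (30.1%) held the same base, and the beta I end begins 5934 bases after the last coding base of beta II.

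As both quantifiers divided the reads, transcripts with the beta II end were far more abundant than the beta I transcript in both mice. Prkcb-208, described below, was counted in neither. The beta II transcripts (Prkcb-202 and Prkcb-205) summed to 239 TPM in replicate 2 and 279 TPM in replicate 1, and the beta I transcript (Prkcb-201, 671 residues) had 18.0 TPM in replicate 2 and 23.6 TPM in replicate 1. Beta II exceeded beta I 12.5 ± 0.995 times in the first transcript table and 15.9 ± 0.173 times in the second. The leading transcript was Prkcb-202 (673 residues), with 46.2% ± 0.321 of the gene's TPM in the first table and 42.2% ± 0.191 in the second. Prkcb-205, annotated as a target of nonsense-mediated decay, carries the same beta II coding sequence and then runs on into the beta I exon. It had 38.8 TPM in replicate 2 and 38.7 TPM in replicate 1, which was 8.19% of TPM in the first table and 21.2% in the second.

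The next largest share of Prkcb belonged to Prkcb-208, a single-exon transcript of 955 bases that the annotation calls a retained intron. It had 175 TPM in replicate 2 and 211 TPM in replicate 1, a mean of 40.5% of the gene's TPM in the first table and 31.3% in the second. By expected counts, which do not divide by length, its share was 17.1%. Prkcb-208 contains all 658 bases of the last exon of Prkcb-201, and Prkcb-205 contains 655 of them. No exonic base of Prkcb-201 is absent from the other Prkcb transcripts, so the division of reads among beta I, Prkcb-205 and Prkcb-208 rests on splice junctions and on each quantifier's model. The ratio of beta II over beta I rests on that division too. Prkcb-208 averaged 193 TPM and Prkcb-201 20.8 TPM in the first table. How many reads given to Prkcb-208 came from beta I RNA was not tested.

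Prkca (ENSMUSG00000050965.14, chr11:107933387-108343928, − strand) encodes the alpha isozyme, the other conventional kinase analysed, whose tail binds the scaffold protein PICK1. It reached 67.5 TPM in replicate 2 and 79.1 TPM in replicate 1 (mean 73.3 ± 8.25). Prkcb stood above it in both mice. The leading transcript, Prkca-201 (672 residues), had 38.7 TPM in replicate 2 and 45.5 TPM in replicate 1, a mean of 57.4% of the gene's TPM in the first table and 44.6% in the second. Prkca-204, a processed transcript of 678 bases with no coding sequence, had 38.6% in the first table and 44.0% in the second. In replicate 2 of the second table it led the gene, at 47.5% against 44.7% for Prkca-201. Its share of expected counts was 4.45%, against 95.1% for Prkca-201, so the short model weighs far more per length than in reads. Prkca shares 30 exonic bases with Apoh on the opposite strand.

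Prkce (ENSMUSG00000045038.14, chr17:86167785-86657919, + strand) encodes the epsilon isozyme, a calcium-independent kinase that binds actin and is known from mouse work on pain and ethanol responses. It was the highest calcium-independent gene, at 112 TPM in replicate 2 and 116 TPM in replicate 1 (mean 114 ± 2.63). In deposited TPM its SD was the smallest of the 8 genes relative to its mean, while by the TMM-scaled counts compared further on it differed more between the mice than 6 of the others. Prkce-202 (737 residues) held 97.5% ± 0.445 of the gene's TPM in the first table and 77.6% ± 0.639 in the second. Prkce-201 codes for the same number of residues from a shorter transcript, and was listed at 0 TPM in the first table against 21.1% of TPM in the second. The second highest transcript of the first table was Prkce-203, a retained intron with 1.28% of TPM. Prkce shares 472 exonic bases with the unclassified gene AC154542.1 on the same strand.

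Prkcd (ENSMUSG00000021948.17, chr14:30595354-30626210, − strand) encodes the delta isozyme, a calcium-independent kinase linked to apoptosis whose transcript is abundant in mouse thalamus. It had 3.98 TPM in replicate 2 and 6.47 TPM in replicate 1 (mean 5.23 ± 1.76), from 198 expected counts in replicate 2 and 219 in replicate 1. This was the largest relative gap between the mice among the 8 genes. The annotation holds 13 Prkcd transcripts, 4 of which (Prkcd-201, Prkcd-202, Prkcd-204 and Prkcd-208) carry 78 extra coding bases, or 26 residues, that lengthen the hinge before the kinase domain. The extra bases are shown in capitals, with 12 flanking coding bases on each side, because they separate the coding transcripts that were assigned reads from those that were assigned none.
Prkcd insert, chr14:30602659-30602736, − strand: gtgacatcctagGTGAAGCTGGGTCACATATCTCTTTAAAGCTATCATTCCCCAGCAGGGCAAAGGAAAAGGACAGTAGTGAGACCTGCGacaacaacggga
All 4 transcripts with the insert were at 0 expected counts in both mice, and at 0 in the second table as well. Only reads that touch the insert or its junctions could tell these forms from the others, and their number is not in the tables, so no upper limit on the share with the insert is given. The coding transcripts without the insert summed to 2.38 TPM in replicate 2 and 2.84 TPM in replicate 1.

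The leading Prkcd transcript was Prkcd-207 (674 residues), at 2.10 TPM in replicate 2 and 2.22 TPM in replicate 1. Its share was 52.9% in replicate 2 and 34.3% in replicate 1, while its TPM was nearly equal in the mice. Prkcd-206, a retained intron, held 16.4% ± 3.14 in the first table and 20.1% ± 7.19 in the second. Prkcd-205 (559 residues) held 3.29% in the first table and 13.1% in the second, and the retained intron Prkcd-210 held 5.92% in the first table and 11.9% in the second. Each of these shares rests on few reads, at most 142 expected counts for any Prkcd transcript.

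Prkcq (ENSMUSG00000026778.13, chr2:11172108-11301222, + strand) encodes the theta isozyme, a calcium-independent kinase known from T cell receptor signalling and skeletal muscle. It had 3.28 TPM in replicate 2 and 4.43 TPM in replicate 1 (mean 3.86 ± 0.813). The T cell genes other than Lck were at or near 0 TPM in the gene table. Cd3e was listed there at 0.03 TPM in replicate 2 and 0 in replicate 1, and the list summed to 1.07 TPM in replicate 2 and 1.27 TPM in replicate 1. The skeletal muscle genes summed to 5.82 TPM in replicate 2 and 5.39 TPM in replicate 1, nearly all from Acta1. Prkcq-201 (707 residues) held 92.5% ± 6.30 of TPM in the first table and 43.3% ± 5.83 in the second. The second table gave 35.6% to the retained intron Prkcq-203 and 17.9% to the processed transcript Prkcq-206, which the first table had at 2.88% for Prkcq-203 and 0 for Prkcq-206.

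Prkch (ENSMUSG00000021108.18, chr12:73584796-73778185, + strand) encodes the eta isozyme, a calcium-independent kinase best known from epithelia. It was the lowest member, at 1.88 TPM in replicate 2 and 2.34 TPM in replicate 1 (mean 2.11 ± 0.325), from 164 expected counts in replicate 2 and 149 in replicate 1. Prkch-201 (683 residues) held 96.1% ± 4.76 of TPM in the first table and 76.6% ± 11.6 in the second. The next transcript of the first table, Prkch-202, held 2.35%. Prkch-204, annotated for nonsense-mediated decay, was at 0 in the first table and held 16.1% in the second.

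Prkcz (ENSMUSG00000029053.16, chr4:155260129-155361361, − strand) encodes the zeta isozyme, an atypical kinase. In rodent brain the gene is known to have an internal promoter from which a short form, protein kinase M zeta, is made: it has the kinase domain without the inhibitory part, and has been studied in rat as a kinase of lasting synaptic strengthening. The gene reached 95.6 TPM in replicate 2 and 106 TPM in replicate 1 (mean 101 ± 7.28). RefSeq promoter windows near the starts that separate the forms are shown from the − strand of GRCm38.p6, with motif matches in capitals. Each runs from 250 bases before to 50 bases after the RefSeq start. The GENCODE M21 start of the full-length transcript Prkcz-201 lies 67 bases downstream of the RefSeq start, so the full-length window does not contain it. That of the short-form transcript Prkcz-202 lies 17 bases downstream, inside the internal window.
Prkcz full-length start, chr4:155361379-155361678: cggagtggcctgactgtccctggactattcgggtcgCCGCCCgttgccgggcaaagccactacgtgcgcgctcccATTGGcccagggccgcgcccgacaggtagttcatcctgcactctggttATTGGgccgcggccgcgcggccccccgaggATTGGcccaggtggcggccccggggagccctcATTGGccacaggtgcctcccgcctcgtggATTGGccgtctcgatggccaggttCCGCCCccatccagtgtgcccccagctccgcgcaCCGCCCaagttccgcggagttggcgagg
Prkcz internal start, chr4:155345740-155346039: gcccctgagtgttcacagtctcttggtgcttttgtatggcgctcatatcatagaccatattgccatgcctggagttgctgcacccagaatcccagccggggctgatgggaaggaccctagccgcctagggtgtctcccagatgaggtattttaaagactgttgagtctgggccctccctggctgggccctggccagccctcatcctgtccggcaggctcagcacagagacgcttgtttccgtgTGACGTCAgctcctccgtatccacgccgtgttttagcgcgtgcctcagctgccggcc
The full-length window held 5 CCAAT boxes (CCAAT, or ATTGG on the other strand) and 3 GC boxes (GGGCGG or CCGCCC). The internal window shown held neither, and held 1 cyclic AMP response element (TGACGTCA, the same on both strands). None of these matches overlapped. A further internal window, chr4:155344700-155344999, nearest the start of Prkcz-210, is not shown. It held 2 GC boxes, no CCAAT box and no cyclic AMP response element.

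Over all 32851 promoter windows, 37.4% held a CCAAT box and 0.271% held at least 5, 35.7% held a GC box, and 1.79% held a cyclic AMP response element. RefSeq windows were matched for 6 of the 8 genes, 9 windows in all. Of these 9, 7 held a GC box, and only the full-length Prkcz window held a CCAAT box. A TATA box (TATAAA or TTTATA) stood in 1 window, that of Prkcd, against 13.6% of all windows. Only the internal Prkcz window shown above held a cyclic AMP response element. The motifs were chosen after the windows had been read, and a match describes letters and no binding.

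The short form led the Prkcz transcripts in both mice and both quantifiers. Prkcz-202 (409 residues) starts 15589 bases downstream of the full-length Prkcz-201 (592 residues), shares 13 of its 15 exons with it, and lacks the first 183 residues. Its start codon is codon 184 of the full-length coding sequence, shown in capitals with 30 coding bases of the full-length form before it.
Prkcz short-form start codon, chr4:155293183-155294299 with an intron between, − strand: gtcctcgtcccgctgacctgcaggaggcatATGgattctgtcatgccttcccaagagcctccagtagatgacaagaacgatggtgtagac
Prkcz-202 had 69.7 TPM in replicate 2 and 75.0 TPM in replicate 1, and Prkcz-201 had 3.41 TPM in replicate 2 and 3.78 TPM in replicate 1. The short form took 72.9% of the gene's TPM in replicate 2 and 70.8% in replicate 1, a mean of 71.8% ± 1.49. It exceeded the full-length form 20.1 ± 0.428 times.

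The size of that excess depended on the quantifier. In the second table the short form took 41.7% ± 0.121 of TPM, the full-length form 11.7% ± 0.270, and the ratio was 3.57 ± 0.0722. By expected counts of the first table the short form took 92.2% ± 0.373. The annotation ends Prkcz-202 1592 bases past the end of Prkcz-201, and gives it 323 bases of its own at the start. Reads from the longer end are assigned to Prkcz-202 whichever start their RNA had, and how many there were was not tested. The full-length form has 473 bases that the short form lacks.

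The other Prkcz transcripts are partial. Prkcz-209, a processed transcript of 790 bases at the end of the gene, had 13.8 TPM in replicate 2 and 15.5 TPM in replicate 1, or 14.5% of TPM in the first table and 18.5% in the second. Prkcz-204, a coding transcript from an internal start whose annotated coding sequence is incomplete, had 4.53% in the first table and 24.7% in the second. Prkcz-206, also internal and incomplete, had 2.37% in the first table and 1.41% in the second, and Prkcz-203, a coding transcript of 96 residues from the full-length start, was at 0 in both tables and both mice. Counted together, the 5 transcripts from the internal region took 79.9% ± 0.187 of TPM in the first table and 68.8% ± 2.25 in the second. This grouping was chosen after the values were seen.

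**Figure D2:**
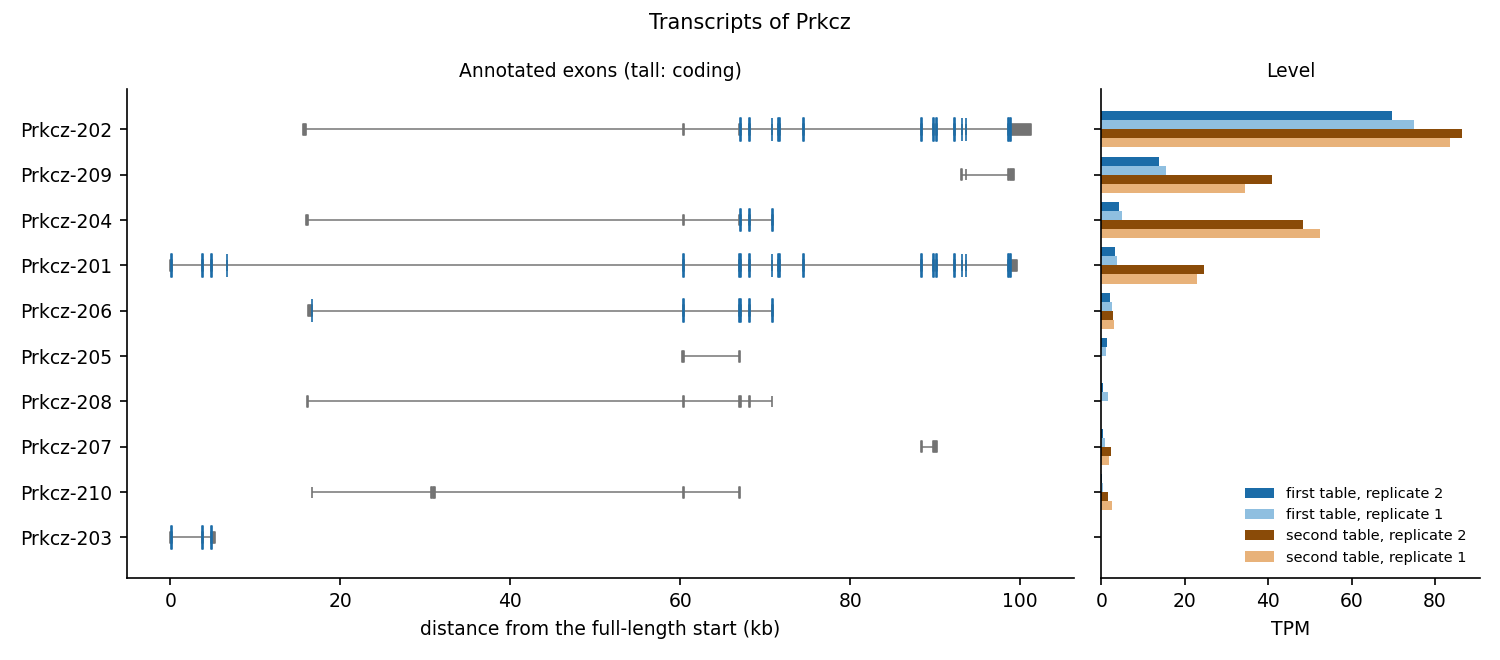
Annotated exons of the 10 Prkcz transcripts (left; distance from the full-length start in kb, tall boxes coding, boxes outlined so that short exons stay visible) and their TPM (right; first table in blue, second table in brown, replicate 2 in the darker shade). Prkcz-202, which starts 15589 bases into the gene, has the longest bars in both tables and both mice, and Prkcz-201 at the full-length start reaches 3.78 TPM in the first table.

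Prkci (ENSMUSG00000037643.14, chr3:30995747-31052959, + strand) encodes the iota isozyme, the other atypical kinase, which acts with the Par proteins in cell polarity. It had 26.6 TPM in replicate 2 and 27.7 TPM in replicate 1 (mean 27.1 ± 0.792). Prkcz was higher than Prkci in both mice and both tables. Prkci-201 (595 residues) held 59.4% ± 2.93 of TPM in the first table and 35.2% ± 5.04 in the second. Prkci-203, coding but incomplete at its end, held 18.1% in the first table and 28.7% in the second. The processed transcript Prkci-202 held 17.5% in the first table and 31.1% in the second, and in replicate 2 of the second table it led the gene, at 34.1% against 31.6% for Prkci-201.

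Across the family the leading transcript of the mean was the same in both quantifiers for 8 of 8 genes, where 76.7% of 11549 expressed genes with several transcripts matched. It was a protein-coding transcript for all 8, as for 92.4% of those genes. The leading transcript took at least 50% of TPM in both mice for 6 of 8 genes in the first table, close to the 64.0% of all such genes, and Prkcb and Prkcd fell short. In the second table Prkce and Prkch reached 50% in both mice, 2 of 8 where 55.7% of all such genes did. Protein-coding transcripts summed to between 50.6% (Prkcb) and 97.5% (Prkce) of a gene's TPM in the first table, and 5 of the 8 genes lay below the median of 88.0% over those 11549 genes.

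**Figure D3:**
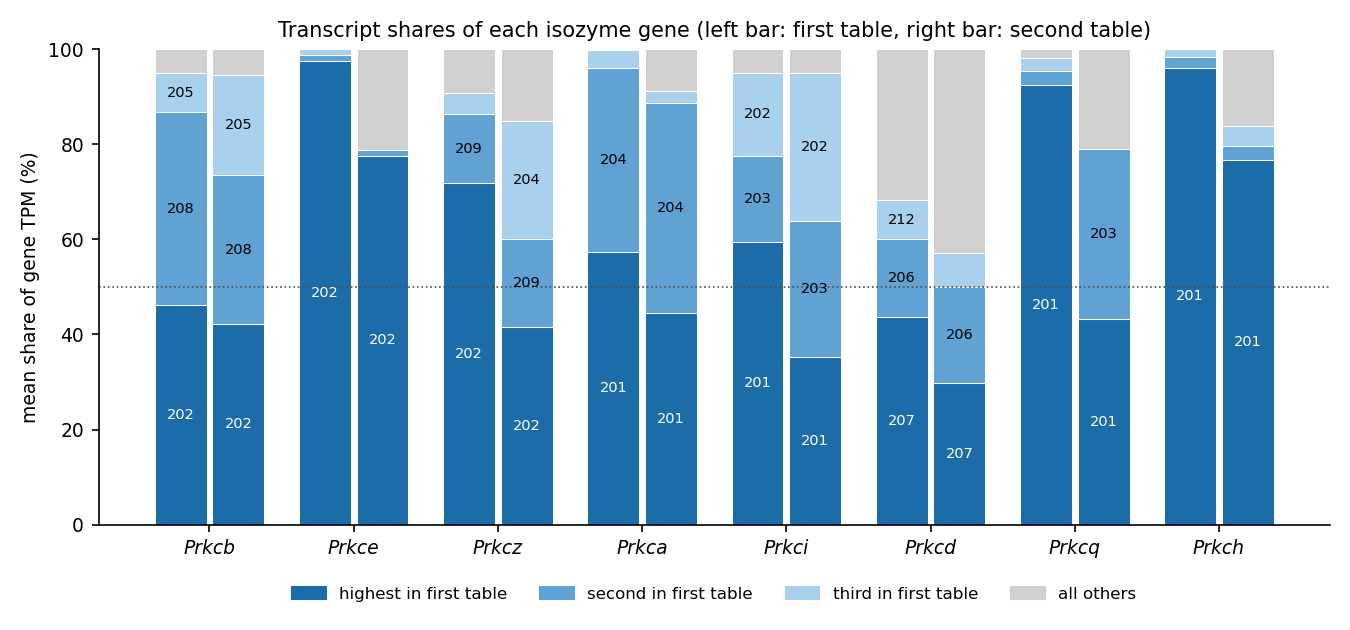
Share of each gene's TPM (percent, mean of both mice) in the transcripts ranked 1, 2 and 3 in the first table (dark to light blue), with all others in grey; the left bar of each pair is the first table and the right bar the second. Numbers are transcript suffixes, and the dotted line marks 50%. In the second table Prkce-202 stands at 77.6% and Prkcz-202 at 41.7%.

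The mice were compared by the log2 ratio of replicate 2 over replicate 1 in counts scaled to TMM library sizes. No isozyme gene was 2-fold apart, where 0.713% of the 12615 genes that averaged 100 counts or more were, and none was 1.5-fold apart, where 3.08% were. The second of these counts depended on the scaling. Prkcd was 1.5-fold lower in replicate 2 by the ratio of deposited TPM, at a log2 ratio of -0.70, where 8.13% of the 12615 genes were 1.5-fold apart. Scaled to the spike-ins, Prkcd (-0.80) and Prkcq (-0.59) were, as were 2647 of those 12615 genes (21%). The median absolute log2 ratio was 0.12 over the 8 genes and 0.13 over the 12615. The ratio was negative for 4 of 8 genes, as for 41.1% of the 12615, and the 95% exact (Clopper-Pearson) counting interval spanned 0 for 4 of 8, as for 53.0%. These intervals cover counting error only and leave out differences between animals.

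Prkce was higher in replicate 2, by a log2 ratio of 0.20 (interval 0.17 to 0.24). Prkcz had a ratio of 0.13 (0.08 to 0.18) and Prkci 0.10 (0.01 to 0.20). For Prkcb the ratio was -0.00041 (-0.03 to 0.03) and for Prkca 0.01 (-0.04 to 0.05), and both intervals spanned 0. Prkcq had -0.13 (-0.37 to 0.11) and Prkch -0.05 (-0.38 to 0.28), both spanning 0. Prkcd had the largest ratio of the family, -0.33 (-0.62 to -0.05), lower in replicate 2. In bulk tissue, fewer cells of a type and less RNA per cell cannot be told apart.

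Marker lists of neighbouring tissue and of brain cell types were read beside Prkcd. The choroid plexus genes summed to 9.54 TPM in replicate 2 and 73.1 TPM in replicate 1, mostly Ttr, with a log2 ratio of -2.82. Of the 5 thalamus genes averaging 100 counts or more, 3 were lower in replicate 2, with a median log2 ratio of -0.08. Gbx2 of that list was listed at 0 TPM in replicate 2 and 0.05 TPM in replicate 1. Of the 4 oligodendrocyte genes 3 were lower in replicate 2, with a median log2 ratio of -0.17. Their deposited TPM summed to 1385 in replicate 2 and 1868 in replicate 1. Deposited TPM was lower in replicate 2 for genes in general, with a median log2 ratio of -0.21 over the 12615 genes. Lists of 2 other neighbouring regions had positive ratios. The 4 striatum genes had a median log2 ratio of 0.28, with 0 of them lower in replicate 2, and the 3 hippocampus genes averaging 100 counts or more had a median of 0.30, with 1 lower. Among other brain cell types, median log2 ratios were positive for astrocyte (0.16), pan-neuronal (0.10), inhibitory neuron (0.08), microglia (0.07) and precursor (0.04) genes. The excitatory neuron genes had a median of -0.02 and the endothelium genes -0.05. The part of any of these tissues or cell types in the Prkcd ratio was not tested.

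The direction of these ratios depended on the scaling. Scaled to the spike-ins, all 8 ratios were negative, from -0.80 for Prkcd to -0.26 for Prkce, and the median over 18187 genes (10 counts or more on average) was -0.44. This scaling shifts every gene by nearly the same amount, so it leaves the order of the 8 ratios as it was. The deposited TPM was lower in replicate 2 for 8 of 8 genes, where its median log2 ratio over the 12615 genes was -0.21.

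**Figure D4:**
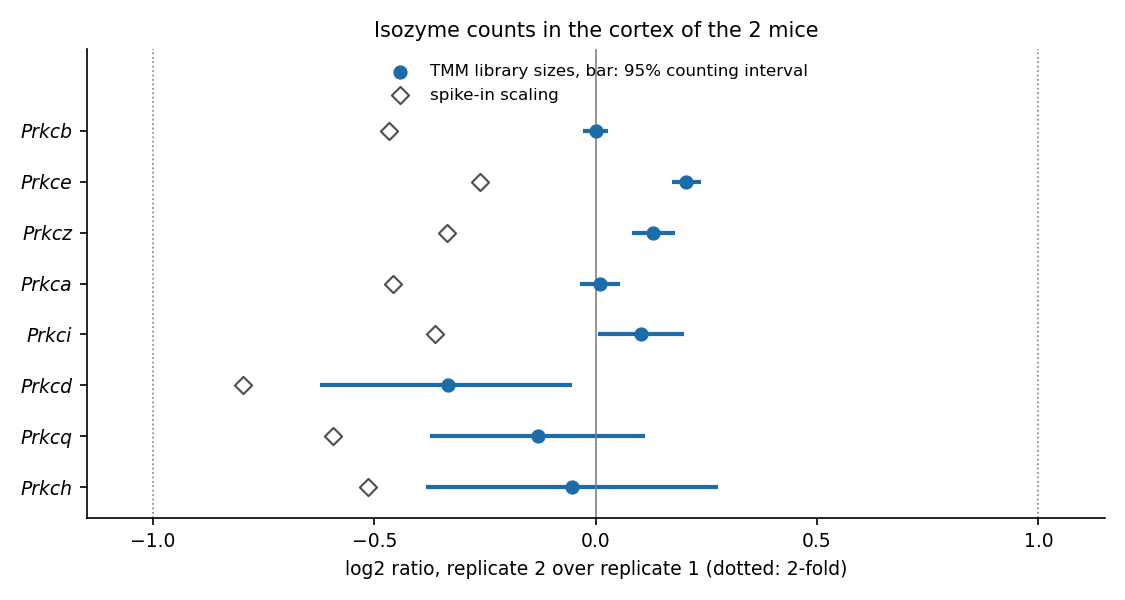
Log2 ratio of replicate 2 over replicate 1 for each isozyme gene, from counts scaled to TMM library sizes (filled circles, with 95% counting intervals as bars) and scaled to spike-ins (open diamonds). Dotted lines mark 2-fold. No circle or diamond reaches them, and every diamond lies below 0.

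The genes around the kinases were summarised from 7 lists. None of their genes averaging 100 counts or more was 1.5-fold apart between the mice in TMM-scaled counts, where 3.08% of the 12615 genes were. By deposited TPM, where 8.13% of the 12615 were, some list genes were too. Rps6kb2 had 11.3 TPM in replicate 2 and 20.1 TPM in replicate 1, and Prkd2 had 1.27 TPM in replicate 2 and 2.44 TPM in replicate 1. Phospholipases C make diacylglycerol from membrane phosphoinositides. Of 12, 11 had at least 1 TPM in both mice, and the median was 6.42 ± 1.35 TPM. Plcb1, driven by Gq-coupled receptors, was highest at 83.2 ± 11.1 TPM, followed by Plcg1 (49.0 ± 10.5) and Plcb4 (34.8 ± 8.45), and Plcb2 was lowest at 0.905 ± 0.0919 TPM. All 3 of the highest lay below Prkcb. The diacylglycerol kinases and lipases, which remove the lipid, had a median of 28.8 ± 4.06 TPM with 11 of 12 at 1 TPM or more. Dgkz led them at 228 ± 13.5 TPM, Dgkb had 49.4 ± 4.04 TPM and the lipase Dagla 41.5 ± 4.57 TPM, and Dgkk was lowest at 0.215 ± 0.00707 TPM.

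Proteins that mature or inactivate the kinases, 11 of 11 at 1 TPM or more, had a median of 29.0 ± 2.14 TPM. The chaperones Hsp90ab1 (649 ± 42.6 TPM) and Hsp90aa1 (447 ± 57.6 TPM) and their partner Cdc37 (66.4 ± 4.98 TPM) were highest, and the phosphatase Phlpp2 was lowest at 14.8 ± 2.60 TPM. Anchoring and scaffold proteins had a median of 22.2 ± 0.636 TPM, with 13 of 13 at 1 TPM or more. Ywhaz, a 14-3-3 protein, had 529 ± 13.4 TPM, Sqstm1, which binds the atypical isozymes, 210 ± 5.02 TPM and Rack1, which binds activated protein kinase C, 94.9 ± 4.84 TPM. Pard6b, a polarity partner of the atypical isozymes, was lowest at 2.33 ± 0.0636 TPM.

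The substrate list had the highest median of the 7, 109 ± 0.778 TPM, with 12 of 12 at 1 TPM or more. Snap25, a release protein, had 1291 ± 141 TPM, and Nrgn, a postsynaptic calmodulin-binding protein, had 1060 ± 52.9 TPM. Ppp1r14a, a phosphatase inhibitor, was lowest at 10.9 ± 1.20 TPM. Other receptors of diacylglycerol had a median of 14.2 ± 1.75 TPM with 11 of 12 at 1 TPM or more. The Rac regulator Chn1 led at 703 ± 71.6 TPM, above every isozyme, followed by the Ras activator Rasgrp1 (153 ± 15.3 TPM) and the vesicle priming factor Unc13a (131 ± 25.9 TPM). Rasgrp4 was lowest at 0.460 ± 0.141 TPM.

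Related AGC kinases, listed for scale, had a median of 19.8 ± 3.91 TPM with 16 of 17 at 1 TPM or more. The highest were the protein kinase A catalytic genes Prkacb (204 ± 15.3 TPM) and Prkaca (109 ± 0.948 TPM), and Pkn3 was lowest at 0.625 ± 0.233 TPM. Prkcb exceeded all 17 in both mice. Which genes follow the isozymes across samples was not computed, since any pair of genes correlates perfectly over 2 libraries.

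**Figure D5:**
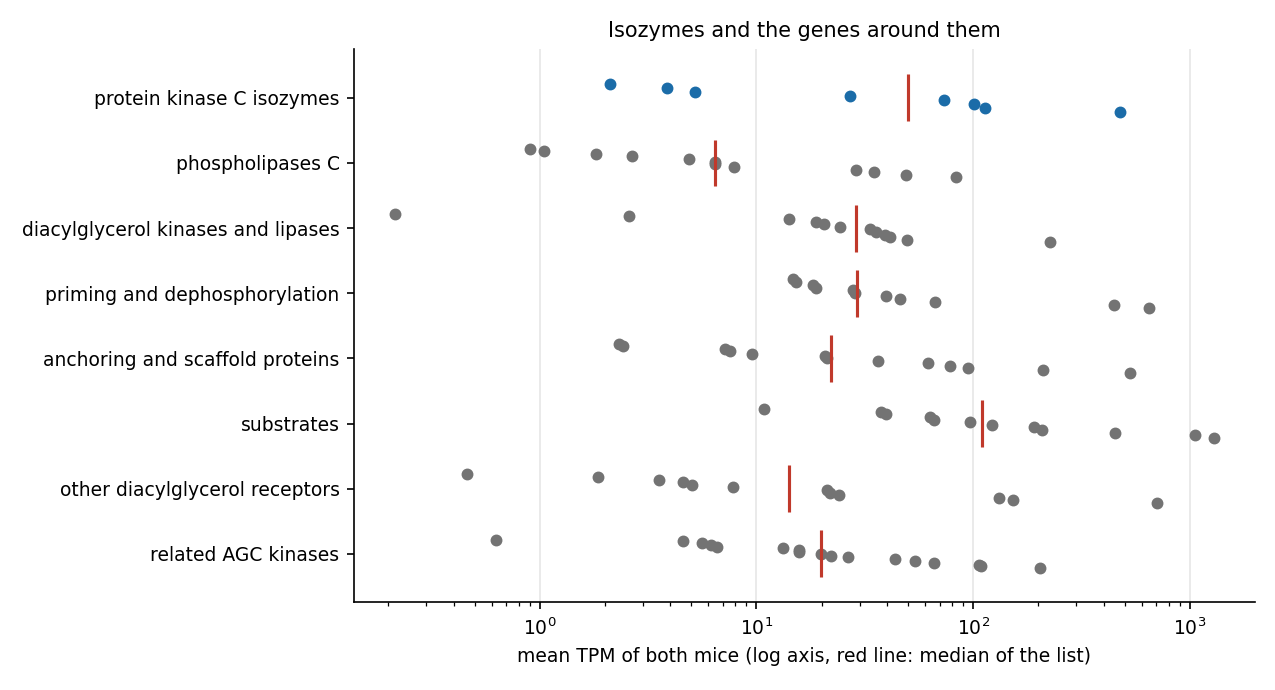
Mean TPM of both mice (horizontal axis, log scale) for each isozyme gene (blue) and each gene of the 7 lists (grey), with the median of each list as a red line. The isozyme median of 50.2 TPM lies above those of 6 lists and below the substrate median of 109 TPM.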

How the data were processed

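Per the labels, total RNA libraries were made from the left cerebral cortex of 2 mice and the genome build is mm10. They give the libraries separate animals but 1 donor record, read here as that of the strain. Per the file headers, a gene table and a first table of transcripts hold the authors' expected counts, TPM and FPKM, with the percent of its gene's abundance for each transcript. A further table of transcripts, deposited from another quantifier, gives estimated counts and TPM. Other deposited columns, such as interval bounds and score-like values, were not used. Aligner and tool versions: not given in the sources used here. Reads that fit several transcripts are divided by a model, so shares of overlapping transcripts are estimates, and loss of reads from the CAST/EiJ allele was not tested.

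Symbols and coordinates came from GENCODE M21, and promoter windows from RefSeq (GRCm38.p6). Expected counts were rounded to whole numbers and scaled by TMM (edgeR 4.0.16, R 4.3.3), with a prior count of 2, and DESeq2 1.42.0 gave alternative size factors. Ratios are a rule of size with no test. Of the 8 genes, all but Prkcz had whole expected counts in both libraries. The ratio step was tested on simulated counts. Python 3.11.15 with pandas 2.3.3, scipy 1.17.1 and matplotlib 3.10.9 was used. Alternatives were other scalings, thresholds, units, quantifiers and each mouse alone. All 8 genes were named, with each transcript at 10% or more of its gene's TPM in either table, the leading and second transcripts, all coding transcripts of Prkcz, and the 3 highest and the lowest gene of each list. Some genes that the rule selects from the lists are not reported here. Members and lists were chosen with earlier results of these data known.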

Additional observations from a re-analysis of the deposited data

How the results depend on the processing

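The conventional share of 68.4% was 61.8% in the second transcript table and 54.6% by expected counts, and 67.4% to 69.5% in either mouse alone. The short-form share of Prkcz, 71.8%, was 41.7% in the second table and 92.2% by expected counts, and 70.8% to 72.9% in either mouse alone. It was 79.9% with all internal starts counted and 95.3% over the short and full-length forms only, both alternatives chosen after the data were seen. Of 8 genes at 1 TPM, 5 reached 10 TPM. The count of genes with a leading transcript at 50% or more was 6 in the first table and 2 in the second, with 6 to 7 in either mouse alone. The same leading transcript in both tables was found for 8 genes in the mean, and for 6 to 7 in either mouse alone, where Prkca and Prkci differed in replicate 2 and Prkcq in replicate 1. The counts of 0 genes 2-fold apart held under DESeq2 size factors, spike-in scaling, other minimum counts and the second table's counts. The count of genes 1.5-fold apart, 0 by TMM, was 2 under spike-in scaling and 1 by deposited TPM, alternatives chosen after the data were seen. Prkcd, Prkcq and Prkch, with at most 290 expected counts in a library, limit what can be said of their transcripts. The cause of the differences between tables was not tested. No paired analysis was possible because both libraries belong to 1 group.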
